A study of Mus musculus with 6 samples.

Results

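Spp1, Ibsp, Dmp1 and Mepe are 4 members of the SIBLING family, the small integrin-binding ligand N-linked glycoproteins of bone and dentin. They were followed in the MC3T3-E1 line of mouse pre-osteoblasts, which can mineralise its matrix, 3 days after the cells were placed on a scaffold. Probes were assigned to these genes through the RefSeq transcript accession printed on the array, which gave 5 non-control probes among 39429, and the 4 genes stand among 20659 named ones. Ibsp had 2 probes, and Spp1, Dmp1 and Mepe had 1 probe each. In the De-HA group (n = 3) the cells grew on an FeMnSi scaffold, an alloy of iron, manganese and silicon, that was dealloyed (some of its metal is leached out) and then coated with a bioactive layer. In the FeMnSi group (n = 3) the cells grew on the original scaffold, so that both groups share the cell line, the culture time and the base alloy. All samples come from a single cell line, and whether the replicates were separate cultures is not stated in the labels. The p-values therefore cover the spread between these samples only, and that spread may be technical. RNA was labelled with Cy3 and read on single-colour Agilent arrays, 1 array per sample.

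SIBLING proteins are secreted, acidic phosphoproteins that carry an integrin-binding RGD sequence and bind hydroxyapatite. Osteopontin, the product of Spp1, is made by osteoblasts and by many other cells, among them macrophages, and in its phosphorylated form it inhibits crystal growth. Bone sialoprotein, the product of Ibsp, can nucleate hydroxyapatite and marks osteoblasts that are building mineralised matrix. Dmp1 and Mepe are typical of osteocytes: dentin matrix protein 1 takes part in mineralisation and in the control of FGF23, and MEPE releases an acidic peptide that inhibits mineralisation. The Fam20c kinase phosphorylates family members in the secretory pathway, and the endopeptidase Phex can degrade the acidic peptides.

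The 4 genes lie side by side on mouse chromosome 5, in the order Dmp1, Ibsp, Mepe and Spp1, with Dspp, the fifth gene of the family, next to Dmp1. The 250 bases before each annotated transcript start, taken from RefSeq on build GRCm38.p6, are given here for the 3 genes whose signal passed the test described below, because they show how the upstream sequences of these neighbouring genes differ. The letters before Spp1 start 2, which lies downstream of start 1, are left out and its matches are described. RefSeq lists 2 starts each for Spp1 and Dmp1, numbered along the chromosome, and which start the arrays read is not known. Capitals mark matches, on either strand, to any of 7 short motifs. These were AACCACA (bound by RUNX factors), TGANTCA (AP-1), AGGAAGT (Ets factors), CACGTG (E-box), TAATTA (homeodomain factors), CCAAT and TATAAA (the TATA box).
Spp1 start 1, chr5:104434861-104435110, plus strand: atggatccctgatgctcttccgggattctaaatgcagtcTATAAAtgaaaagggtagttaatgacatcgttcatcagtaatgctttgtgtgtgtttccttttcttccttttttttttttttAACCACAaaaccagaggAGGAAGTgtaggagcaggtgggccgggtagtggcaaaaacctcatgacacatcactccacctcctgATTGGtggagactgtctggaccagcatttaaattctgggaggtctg
Dmp1 start 1, chr5:104197325-104197574, plus strand: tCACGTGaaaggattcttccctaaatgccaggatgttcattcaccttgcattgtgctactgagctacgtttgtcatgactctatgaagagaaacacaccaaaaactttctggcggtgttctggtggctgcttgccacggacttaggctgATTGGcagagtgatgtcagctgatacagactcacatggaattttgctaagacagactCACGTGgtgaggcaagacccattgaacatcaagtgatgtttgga
Dmp1 start 2, chr5:104202367-104202616, plus strand: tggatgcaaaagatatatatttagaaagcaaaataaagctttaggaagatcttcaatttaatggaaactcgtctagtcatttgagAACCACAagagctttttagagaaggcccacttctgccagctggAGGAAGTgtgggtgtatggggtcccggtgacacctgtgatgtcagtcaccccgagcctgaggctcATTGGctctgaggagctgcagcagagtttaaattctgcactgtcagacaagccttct
Ibsp, chr5:104299037-104299286, plus strand: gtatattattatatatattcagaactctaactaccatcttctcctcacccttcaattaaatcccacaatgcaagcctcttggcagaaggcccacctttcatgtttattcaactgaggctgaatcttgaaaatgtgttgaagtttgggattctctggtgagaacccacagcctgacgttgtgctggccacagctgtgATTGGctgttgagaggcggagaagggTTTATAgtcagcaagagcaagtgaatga

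Spp1 start 1 held the letters TATAAA from 211 to 206 bases before the start. Nearer the start it held a RUNX match from 129 to 123, an Ets match from 112 to 106 and a reversed CCAAT from 46 to 42. Dmp1 start 2 held no TATAAA. It held the RUNX, Ets and CCAAT motifs in the same order and orientation, from 165 to 159, from 122 to 116 and from 57 to 53 bases before the start. The Ibsp sequence also had a reversed CCAAT, from 54 to 50 bases before the start, and a reversed TATA box from 28 to 23, but no AACCACA or AGGAAGT on either strand. Neither of these was found before Dmp1 start 1, which had 2 E-boxes and a reversed CCAAT, before Spp1 start 2, which had 1 homeodomain match, or before the Mepe start, which had matches to the homeodomain, CCAAT and TATA motifs. Over all 32851 RefSeq upstream sequences of this length, 4.4% held the RUNX motif, 7.69% the Ets motif, 33.8% CCAAT, 6.02% the E-box, 4.84% the homeodomain motif, 12.4% the TATA box and 6.75% the AP-1 motif, which was found in none of the sequences of the 4 genes. The RUNX, Ets and CCAAT motifs occurred together, in any order, in 29 of the 32851 sequences. In the order and orientation of Spp1 and Dmp1, which were set after these matches were seen, they occurred in 3, and the third belongs to a gene on chromosome 10 known by a clone name. The motifs were chosen after the sequences had been seen, and a match is a description of letters and not a binding site. Only the exact letters given were searched, so a start without a match may hold another form of the motif.

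**Figure D1:**
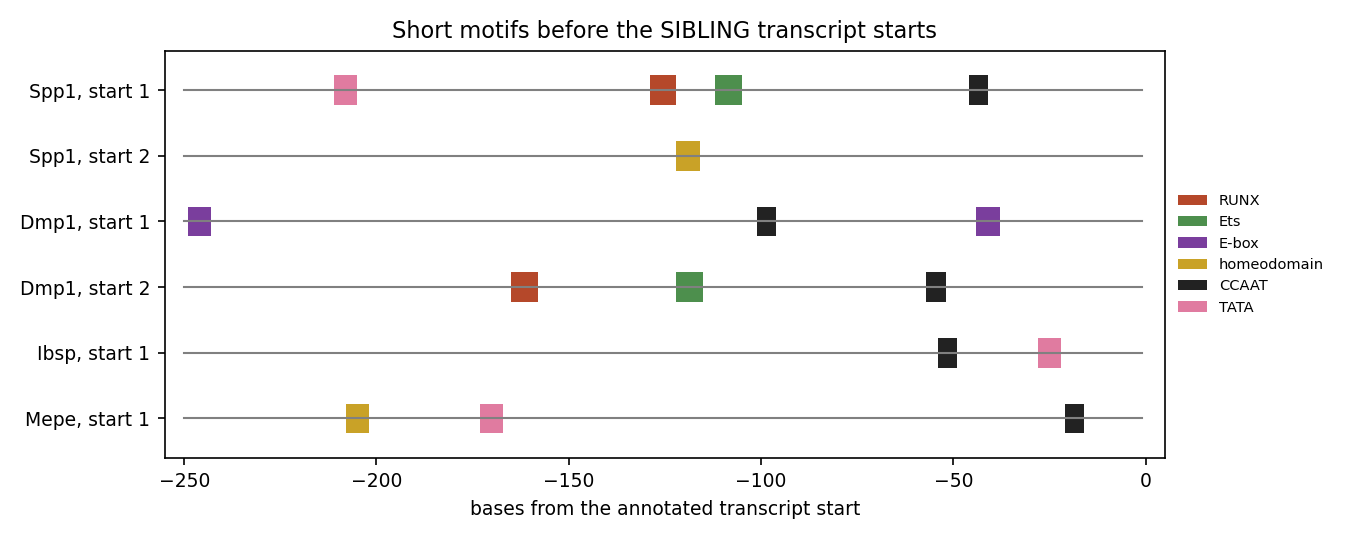
Matches to the short motifs in the 250 bases before each RefSeq transcript start of Spp1, Dmp1, Ibsp and Mepe, on a horizontal axis of bases from the start, with 1 line per start and 1 coloured block per match. Spp1 start 1 and Dmp1 start 2 both carry a RUNX, an Ets and a CCAAT match in that order. The other starts carry no match to the exact letters AACCACA or AGGAAGT, and other forms of these motifs were not searched.

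A probe was tested if 3 or more of the 6 arrays read it well above background. This left 28175 probes, all 5 SIBLING probes among them. Between 63.3% and 74.2% of probes were well above background on the De-HA arrays, and between 68.9% and 73.1% on the FeMnSi arrays, and no spot was saturated. Slides were inferred from the scan times in the file headers, so a slide here is a name for a scan group. All De-HA arrays and FeMnSi 1 are called slide 1. The remaining FeMnSi arrays are called slide 2, because they shared no scan time with a De-HA array. On slide 2 no De-HA array allows a comparison. Within slide 1 the change is the De-HA mean less the value of FeMnSi 1. This is also the estimate of a fit that blocks on the slide, and it is printed next to most of the pooled values. It is not given for the genes whose profiles were most like those of the members. In any fit that leaves out FeMnSi 1, the groups lie on different slides. Group and slide cannot be told apart there, for any gene that passed in it. In all, 6.91% of the probes passed an adjusted p of 0.05 in limma with Benjamini-Hochberg adjustment, 4.34% higher and 2.57% lower in De-HA, with the signals scaled to the 75th percentile of each array. The median log2 fold change of all probes was 0.12 with this scaling and 0.01 after quantile normalization, and 62.8% of the probes past the threshold were higher, against 42.4% after quantile normalization.

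The SIBLING genes moved in opposite directions in De-HA. Spp1 and Dmp1 fell, Ibsp rose by the brighter of its 2 probes, and Mepe was near background in both groups. Of the 5 probes, 1 passed as higher and 2 as lower, and the same 3 probes passed in the same direction under all 5 alternative scalings or signal sources tried. The arrays of the groups did not overlap for these 3 probes, as for 37.4% of all probes (25.6% higher and 11.8% lower in De-HA).

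Spp1, by its probe A_55_P2085142, gave signals of 11594, 10112 and 10788 on De-HA 1, 2 and 3, against 23467, 28960 and 24935 on FeMnSi 1, 2 and 3. These are linear processed signals in arbitrary units, as deposited, and every De-HA array lay below every FeMnSi array. On the log2 scale relative to the 75th percentile, Spp1 averaged 4.13 ± 0.15 in De-HA and 5.21 ± 0.10 in FeMnSi (SD, n = 3 each). Spp1 thus fell 2.12-fold, with a 95% interval of 1.76 to 2.57 (limma adjusted p = 0.00834, log2 fold change -1.09 ± 0.12 SE, and -1.04 within slide 1). Of all probes tested, 0.429% fell at least as far as Spp1. Spp1 passed in each of the 6 fits lacking 1 array (adjusted p 0.0118 to 0.0481). Under the slide block the adjusted p was 0.0634, and it was 0.0485 when only the brightest probe of each gene entered that fit. Fewer cells expressing a gene and less RNA per cell cannot be told apart in these bulk samples.

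Dmp1, by its probe A_51_P264769, gave signals of 482, 509 and 570 on De-HA 1, 2 and 3, against 857, 1116 and 1072 on FeMnSi 1, 2 and 3. The De-HA arrays again lay below all FeMnSi arrays, and FeMnSi 1, the array that shares the slide with De-HA, was the lowest of its group. The log2 level relative to the 75th percentile averaged -0.25 ± 0.19 in De-HA and 0.54 ± 0.13 in FeMnSi (SD, n = 3 each). Dmp1 fell 1.74-fold, with a 95% interval of 1.40 to 2.16 (limma adjusted p = 0.0233, log2 fold change -0.80 ± 0.13 SE, and -0.64 within slide 1), and 1.26% of all probes fell at least as far. Dmp1 passed in 1 of the 6 fits lacking 1 array, the one without FeMnSi 1 (adjusted p = 0.0158), and reached adjusted p-values of 0.0590 to 0.0958 in the other five. Group and slide coincide in the fit without FeMnSi 1. Under the slide block the adjusted p was 0.148.

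Ibsp was read by 2 probes that gave different answers. The brighter probe, A_55_P1986813, gave signals of 125, 160 and 122 on De-HA 1, 2 and 3, against 87.9, 85.0 and 88.2 on FeMnSi 1, 2 and 3. All De-HA arrays were above all FeMnSi arrays, and De-HA 2 was the highest. Its log2 level relative to the 75th percentile averaged -2.20 ± 0.15 in De-HA and -2.99 ± 0.09 in FeMnSi (SD, n = 3 each). By this probe Ibsp rose 1.73-fold, with a 95% interval of 1.44 to 2.08 (limma adjusted p = 0.0164, log2 fold change 0.79 ± 0.11 SE, and 0.69 within slide 1), and 2.63% of all probes rose at least as far. It passed without De-HA 1 (adjusted p = 0.0496) and without FeMnSi 1 (adjusted p = 0.0143), and did not pass in the other four fits lacking 1 array (adjusted p 0.0566 to 0.0764), nor under the slide block (adjusted p = 0.106).

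The dimmer Ibsp probe, A_55_P2075485, which carries the same transcript accession, gave signals of 16.5, 23.6 and 21.3 on De-HA 1, 2 and 3, against 21.5, 18.4 and 20.7 on FeMnSi 1, 2 and 3. The groups overlapped. It was well above background on 5 of the 6 arrays, all but De-HA 1, and its signals lie close to the lowest signal that counted as well above background, which was 11.7 to 23.9 on the De-HA arrays and 12.3 to 14.5 on the FeMnSi arrays. The log2 fold change was 0.17 ± 0.16 SE with a 95% interval of -0.22 to 0.55 (limma adjusted p = 0.494, -0.01 within slide 1), an interval that includes no change and ends near the lower bound of 0.52 given by the brighter probe. The difference between the brighter and the dimmer probe within each array was 2.73 ± 0.20 on the log2 scale in De-HA and 2.11 ± 0.09 in FeMnSi (SD, n = 3 each), and the groups did not overlap. The 2 probes differed in their change by 0.62, or by 0.40 after normexp, and at a level this near background the dimmer probe gives no firm size to that gap. A two-sided exact permutation test over arrays cannot go below p = 0.1 here, the value it gave. The rise of Ibsp was seen by 1 of its 2 probes.

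Mepe, by its probe A_51_P405304, gave signals of 18.2, 17.8 and 13.9 on De-HA 1, 2 and 3, against 16.5, 24.0 and 18.3 on FeMnSi 1, 2 and 3. It was well above background on 2 of 3 arrays in each group, namely De-HA 2 and 3 and FeMnSi 2 and 3, and the groups overlapped. The log2 fold change was -0.06 ± 0.14 SE with a 95% interval of -0.40 to 0.28 (limma adjusted p = 0.777, 0.08 within slide 1). At a level this close to background no difference was detectable, and the sign of the value is not settled.

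**Figure D2:**
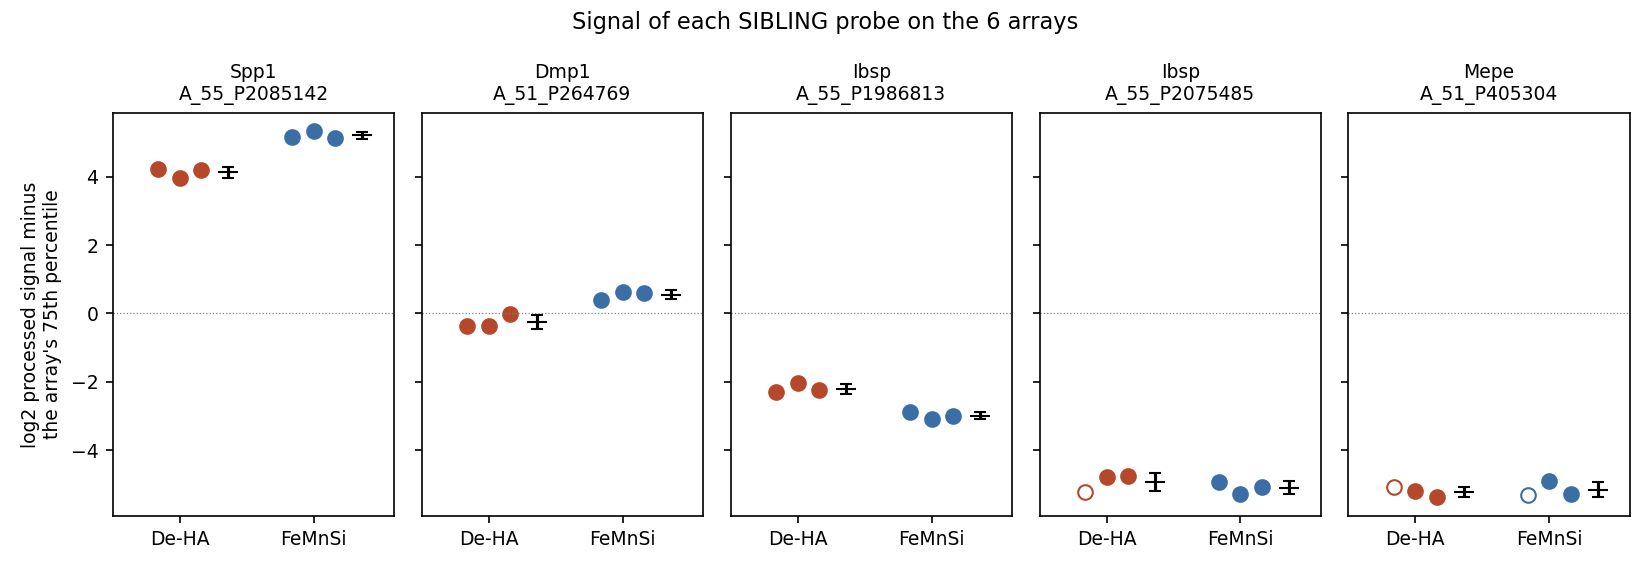
Signal of each SIBLING probe on the 3 De-HA (left, red) and 3 FeMnSi arrays (right, blue), as log2 processed signal minus the 75th percentile of the array, with black marks for the mean ± SD of the group. Filled points are well above background and open points are not, and the De-HA points of Spp1 and Dmp1 lie below, and those of the brighter Ibsp probe above, all FeMnSi points.

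Because each array measures all members, the difference between 2 probes on 1 array is free of any constant shift between arrays, though not of quantile normalization or of the background correction. The size of such a difference has no meaning between probes, but its change between groups shows whether the genes changed unequally. Spp1 minus the brighter Ibsp probe was 6.53, 5.99 and 6.47 on the log2 scale on De-HA 1, 2 and 3, against 8.06, 8.41 and 8.14 on FeMnSi 1, 2 and 3. The gap thus fell by 1.88 in De-HA, without overlap, and by 1.73 within slide 1 alone. The brighter Ibsp probe minus Dmp1 rose by 1.59 in De-HA, also without overlap (1.34 within slide 1). Spp1 minus Dmp1 averaged 4.38 ± 0.18 in De-HA and 4.67 ± 0.12 in FeMnSi (SD, n = 3 each), the groups overlapped, and the exact permutation p was 0.2. This gap changed by -0.29, but by -0.51 after quantile normalization and in the series matrix and by -0.44 after normexp, where the groups no longer overlapped (adjusted values of 0.125, 0.125 and 0.111). The exact two-sided p was 0.1, the smallest possible, for the first 2 of these gaps. Over all 10 pairs of SIBLING probes the Benjamini-Hochberg adjusted values were 0.125 or more, and none can pass 0.05 in this design.

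**Figure D3:**
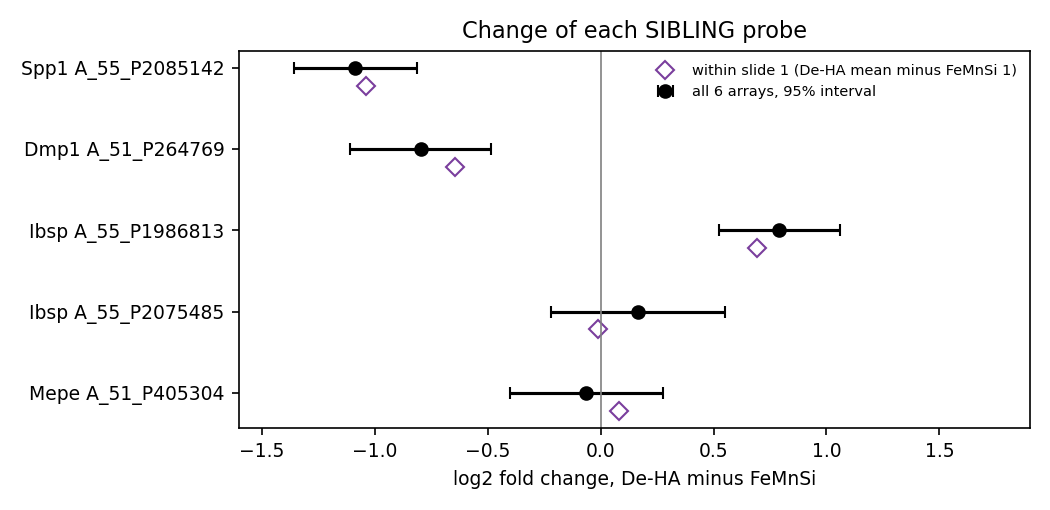
Log2 fold change of each SIBLING probe, De-HA minus FeMnSi, with the 95% interval over all 6 arrays (black) and the value within slide 1 (open diamonds). The intervals of Spp1 and Dmp1 lie below 0, that of the brighter Ibsp probe lies above 0, and those of the dimmer Ibsp probe and of Mepe include 0.

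Dspp, the fifth family gene, encodes dentin sialophosphoprotein, the main non-collagen protein of dentin. Its brighter probe gave signals of 26.1, 24.2 and 23.5 on De-HA 1, 2 and 3, against 22.7, 14.6 and 18.2 on FeMnSi 1, 2 and 3, and was not well above background on De-HA 1. The log2 fold change was 0.59 ± 0.19 SE (limma adjusted p = 0.0990), 0.19 within slide 1 and 0.30 after normexp, and no array read its other probe well above background. The remaining neighbours on the chromosome were taken as the 5 protein-coding genes on either side of the 4 members, of which 6, Dspp included, had a tested probe, and for the other four no probe matched by accession. Nudt9, an ADP-ribose pyrophosphatase gene, was the one neighbour to fall, by 0.41 and 0.39 on the log2 scale with its 2 probes (adjusted p = 0.0429 and 0.0457, -0.38 and -0.40 within slide 1), and none rose. Of the 6 fits without 1 array, its brighter probe passed only where FeMnSi 1 was left out (adjusted p = 0.0285), and it did not pass under the slide block (adjusted p = 0.197). After quantile normalization it gave -0.62. Sparcl1, a matricellular protein gene next to Dspp, gave a log2 fold change of -0.21 ± 0.15 SE and -0.46 within slide 1. After quantile normalization Sparcl1 was at -0.49 (adjusted p = 0.0516), and it passed in the series matrix (-0.49, adjusted p = 0.0488). Pkd2, the polycystin 2 gene next to Spp1, gave 0.10 ± 0.09 SE (0.16 within slide 1), with a negative sign after quantile normalization. Hsd17b11 gave 0.05 ± 0.10 SE (-0.08 within slide 1) and Thoc2l gave -0.13 ± 0.17 SE (-0.28 within slide 1), and neither passed. The median over the 6 neighbours was -0.04, against 0.10 over all 15535 genes, of which 7.65% passed (4.47% higher and 3.18% lower in De-HA) when the brightest probe stood for a gene.

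The enzyme list holds genes of enzymes that phosphorylate, cut or crosslink SIBLING proteins, and relatives of these genes. Among its 7 tested genes Phex rose and none fell, where 4.47% of all genes rose and 3.18% fell. Phex went up 3.16-fold (adjusted p = 0.00216, log2 fold change 1.66 ± 0.11 SE, and 1.83 within slide 1), averaging -0.75 ± 0.07 in De-HA and -2.41 ± 0.15 in FeMnSi on the log2 scale relative to the 75th percentile (SD, n = 3 each). Phex passed in all 6 fits lacking 1 array and under the slide block. Fam20c, the kinase gene, gave -0.33 ± 0.12 SE and -0.11 ± 0.13 SE by its 2 probes, and neither passed (adjusted p = 0.122 and 0.562, -0.29 and -0.30 within slide 1). Bmp1 encodes a protease that cleaves the Dmp1 protein, and Tgm2 encodes a crosslinking transglutaminase. By their brightest probes, Bmp1, Mmp2, Tgm2, Fam20a and Tll1 gave values between -0.13 and 0.25 and did not pass. The other Bmp1 probe gave 0.39 (0.07 within slide 1) and did not pass either. Mmp3, Mmp7, Mmp9, Tll2 and Acp5 had no probe that was kept. The list median was 0.03.

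Of 9 tested receptor genes, none passed in either direction, where 7.65% of all genes passed, and the list median was 0.23. The products of Itgav and Itgb3 form the RGD-binding vitronectin receptor. By their brightest probes these genes gave 0.23 ± 0.10 SE and -0.04 ± 0.10 SE (adjusted p = 0.157 and 0.787), and 0.23 and -0.18 in slide 1 alone. Their other probes gave 0.42 and -0.20 (adjusted p = 0.195 and 0.514), and 0.88 and -0.66 in slide 1 alone. Cd44, the hyaluronan receptor gene whose product also binds osteopontin, gave 0.12 ± 0.09 SE by its brightest probe and -0.49 to 0.05 by the other three. Itga9 and Itga8 had the smallest p-values, with 0.47 ± 0.11 SE and 0.46 ± 0.13 SE (adjusted p = 0.0538 and 0.0724), and 0.32 and 0.27 in slide 1 alone. Itga8 passed after normexp (adjusted p = 0.0403) and with an intensity trend, and Itga9 passed with 1 probe per gene (adjusted p = 0.0404) and when the filter asked for all 6 arrays. At an unadjusted p of 0.05, Itga9 and Itga8 were past it, against 31.9% of all genes.

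Of 7 tested transcription factor genes that are known to act on SIBLING promoters or in osteoblast differentiation, 3 rose and none fell, where 4.47% of all genes rose and 3.18% fell. Vdr, which encodes the nuclear receptor for vitamin D, rose 2.82-fold (adjusted p = 0.0173, log2 fold change 1.498 ± 0.22 SE, and 1.51 within slide 1). Sp7, the osterix gene, rose 1.56-fold (adjusted p = 0.0407, log2 fold change 0.64 ± 0.13 SE, and 0.47 within slide 1), and Runx2 rose 1.47-fold (adjusted p = 0.0421, log2 fold change 0.56 ± 0.12 SE, and 0.57 within slide 1), with 0.63 by its other probe. Of the 6 fits without 1 array, Sp7 and Runx2 passed only where FeMnSi 1 was left out (adjusted p = 0.0203 and 0.0344), and Vdr did not pass without De-HA 3, FeMnSi 2 or FeMnSi 3 (adjusted p 0.0645 to 0.0750). None of these 3 passed under the slide block (adjusted p = 0.106 for Vdr, 0.238 for Sp7 and 0.182 for Runx2). Sp7 did not pass with median scaling (adjusted p = 0.0681) or no scaling (0.0892), nor Runx2 with no scaling (0.136), and none of these 3 passed without the filter on dim probes. By their brightest probes, Msx2, Atf4, Dlx3 and Dlx5 gave values from 0.09 to 0.51 and did not pass. The other Atf4 probe gave 0.0021 (adjusted p = 0.994). The list median was 0.51, against 0.10 over all genes. Earlier results of these data were known when these lists were drawn up, so their counts are no independent evidence of a direction.

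**Figure D4:**
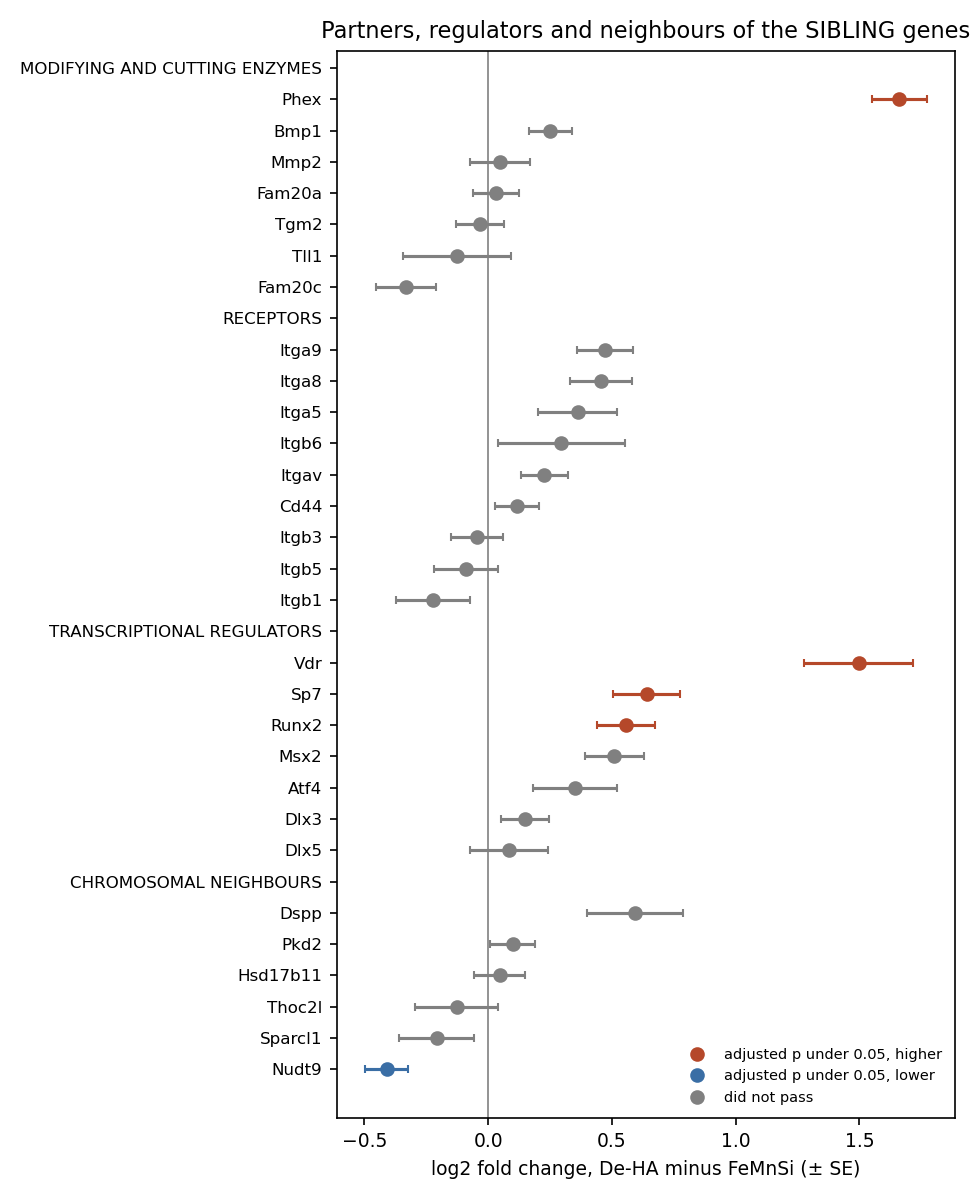
Log2 fold change ± SE, De-HA minus FeMnSi, of the tested enzymes, receptors, transcription factors and chromosomal neighbours of the SIBLING genes, each by its brightest probe. Phex, Vdr, Sp7 and Runx2 passed as higher (red), Nudt9 passed as lower (blue), and grey genes did not pass an adjusted p of 0.05.

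Markers of the cell types in which SIBLING genes are usually read were checked on the same arrays. For the counts below, 4.47% of all genes rose and 3.18% fell. Sp7, Runx2, Phex and Cd44 also stand in the lists above, so they are no new observations here. All 8 tested osteoblast markers were well above background on every array, and Alpl, the alkaline phosphatase gene (adjusted p = 0.0265, log2 fold change 0.85 ± 0.15 SE, and 0.64 within slide 1), Sp7 and Runx2 rose while none fell. Without 1 array, Alpl passed only where FeMnSi 1 was left out (adjusted p = 0.0154), and it did not pass under the slide block (adjusted p = 0.168). After normexp Alpl gave 0.47. Of 5 tested osteocyte markers, Phex rose and none fell, and no array read Sost, the sclerostin gene, well above background. The summed signal of the 5 was 16016 to 17689.5 on the De-HA arrays and 18329 to 19423 on the FeMnSi arrays. The sums in this paragraph add linear signals that were not scaled between arrays. The osteocyte sum comes mostly from Pdpn, at a mean scaled log2 level of 4.11 in De-HA, with Cd44 next at 2.14. Pdpn gave a log2 fold change of -0.17 and did not pass, while Phex, Irx5, Cd44 and Fgf23 gave positive values. Of 9 tested macrophage markers, Adgre1 rose (0.77 ± 0.12 SE, adjusted p = 0.0203, 0.85 within slide 1) and Trem2 fell (adjusted p = 0.00162, log2 fold change -1.70 ± 0.09 SE, and -1.81 within slide 1, -0.79 after normexp). Adgre1 passed without FeMnSi 1 (adjusted p = 0.0201) and in none of the other five fits lacking 1 array, nor under the slide block (adjusted p = 0.0899). These values come from 1 Adgre1 probe, and no array read its other probe well above background. The summed signal of the 9 macrophage markers was 2472 to 3065 on the De-HA arrays and 2210 to 3342 on the FeMnSi arrays, no array read Tyrobp well above background, and the part of these genes in the Spp1 values was not tested. None of 3 tested osteoclast markers, Ctsk, Ocstamp and Oscar, passed (Ctsk -0.17 ± 0.10 SE, adjusted p = 0.250, Ocstamp -0.13 ± 0.13 SE), but Ctsk passed as lower after quantile normalization (-0.42, adjusted p = 0.0344) and in the series matrix (-0.42, adjusted p = 0.0350). Ctsk was -0.28 within slide 1. The other osteoclast markers listed, Acp5, Calcr and Dcstamp, had no probe that was kept. Calcr was well above background only on FeMnSi 2 and FeMnSi 3, the arrays of slide 2, with signals of 25.0 and 29.3. The summed signal of the 3 tested osteoclast markers was 18074 to 20944 on the De-HA arrays and 23702 to 24376 on the FeMnSi arrays. It comes almost wholly from Ctsk, at a mean scaled log2 level of 4.92 in De-HA, against -3.07 for Ocstamp and -2.15 for Oscar. Without scaling between arrays Ctsk gave -0.34, against -0.17 with it. The osteocyte and osteoclast sums thus mainly follow Pdpn and Ctsk and also the brightness of the arrays. Whether the share of a cell type changed was not tested. The part of the osteocyte and osteoclast sums in the values of Spp1 and Dmp1 was not tested.

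The genes whose profile over the 6 arrays was most like that of each member were sought among 13134 genes that were well above background on all arrays. Likeness was the root mean square difference between log2 values centred on their mean over the 6 arrays. For Spp1 these were Fosl1, an AP-1 subunit gene (difference 0.04, log2 fold change -1.10), Lrrc15, a leucine-rich repeat membrane protein gene (0.07, -1.05), and Sgk1, a kinase gene (0.08, -1.07), and no other gene came within 0.1 of it. For Dmp1 they were Eml6 (0.09), Phf11a (0.09) and Rgcc (0.10), with log2 fold changes of -0.69, -0.78 and -0.76, and 4 genes came within 0.1. For the brighter Ibsp probe they were Mindy2, a deubiquitinase gene (0.05), Snx32, a sorting nexin gene (0.05), and Ahr, the aryl hydrocarbon receptor gene (0.06), with log2 fold changes of 0.79, 0.75 and 0.74, and 43 genes came within 0.1. With 6 arrays in 2 groups, likeness mostly reflects the size of the change between the groups, and it is a description of these arrays.

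**Figure D5:**
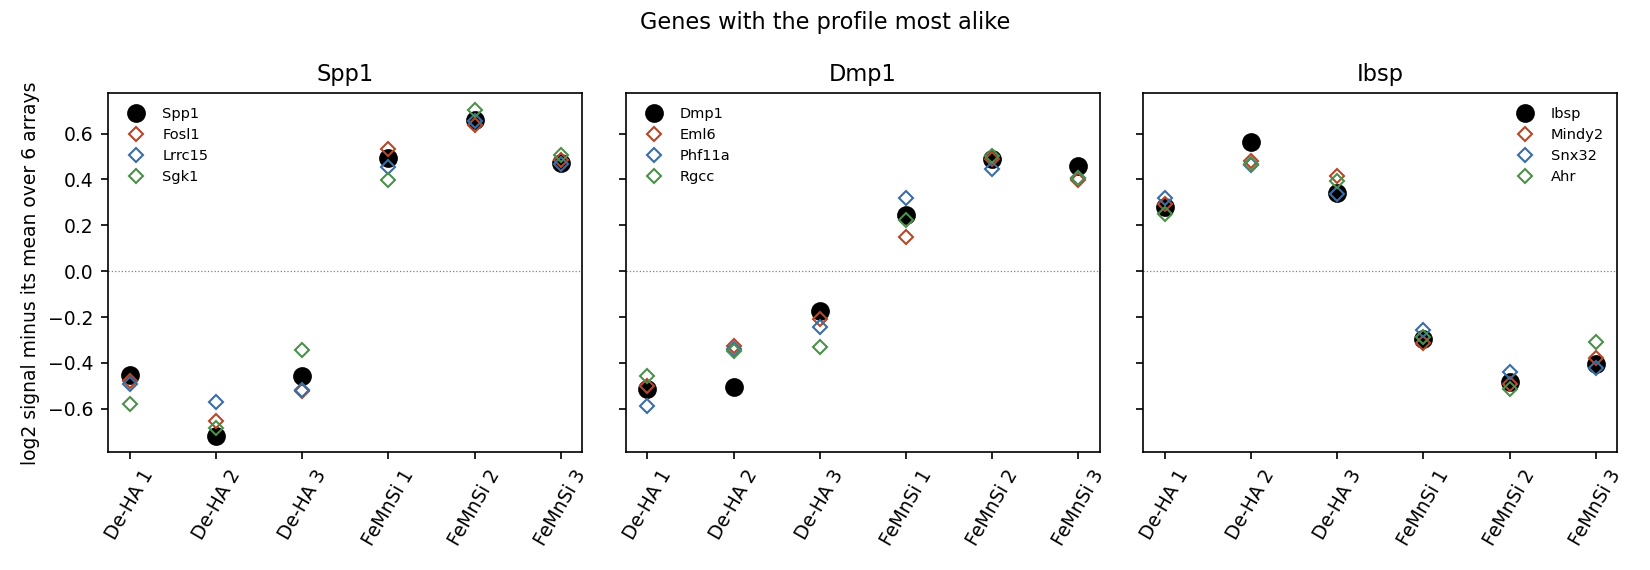
Log2 signal minus its mean over the 6 arrays for Spp1, Dmp1 and the brighter Ibsp probe (black) and the 3 genes most alike to each (coloured diamonds), with the De-HA arrays left of the FeMnSi arrays. Fosl1 follows Spp1 most closely, at a root mean square difference of 0.04.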

How the data were processed

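Spot values are linear intensity values per the file headers, deposited by the authors as Agilent Feature Extraction output (per the submitters' processing notes, in version 11.0.1.1). The processed signal is positive on every spot, also where the background-subtracted signal is not, and per the file headers it was not scaled between arrays. The authors' deposited series matrix holds log2 values, and its columns share a median of 5.77. It was used as an alternative. Its values show quantile normalization. Other steps behind it have no stated source here. Marks on the spots (well above background, outlier, saturated) are other values deposited by the authors.

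From these, the log2 signal of each spot was set against the array's 75th percentile over non-control spots. Outlier spots were dropped (no spot of a family probe was one) and a probe took the mean of its spots. The filter of 3 arrays above background left 28350 probes, less 175 with no usable spot on some array. Each probe was tested by limma 3.58.1 in R 4.3.3 (with data.table at version 1.17.8) over all 6 arrays, with Benjamini-Hochberg adjustment over all 28175. Accessions were named through RefSeq (GRCm38.p6), which gave 27234 probes a symbol. In lists a gene stands for its brightest kept probe. Lists are described by counts and medians. The list of transcription factors was shortened after its values were seen, by 1 gene that is not reported here. Named are all family probes, all neighbours, up to 4 called members of a list or its 2 with the smallest p, and Runx2, Sp7, Vdr, Phex, Fam20c, Itgav, Itgb3 and Cd44. The other list members named by value were chosen after their values were seen. The members and lists were chosen with earlier results of these data known. The normexp alternative used median spot signals and was fitted on spots above their local background, since on FeMnSi 3 there were 6 spots below it and the fit failed with them. The other alternatives were quantile and median scaling, no scaling, the filter, outlier spots kept, an intensity trend, 1 probe per gene, replicate or slide blocks, and leaving out 1 array. The fit was tested on simulated data. The number of arrays limits the precision. Plots were made in Python 3.11.15 using matplotlib 3.10.9. Sequences are RefSeq's, and the arrays were designed on build mm9, so that no other coordinates are given.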

Additional observations from a re-analysis of the deposited data

How the results depend on the processing

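Spp1, Dmp1 and the brighter Ibsp probe kept their direction in all 14 alternatives and in the 6 fits that leave out 1 array. Without 1 array, the log2 fold change ran from -1.13 to -0.998 for Spp1, from -0.91 to -0.74 for Dmp1 and from 0.71 to 0.85 for Ibsp. Over quantile normalization, median scaling, no scaling, normexp and the series matrix they stayed past the threshold (-1.35 to -1.16, -0.96 to -0.71 and 0.60 to 0.73). With the slide as a block or on the arrays of slide 1 alone, Spp1 (-1.04, adjusted p = 0.0634 and 0.123), Dmp1 (-0.64, 0.148 and 0.211) and Ibsp (0.69, 0.106 and 0.170) did not pass. With 1 probe per gene and the slide as a block, an alternative chosen after seeing the data, Dmp1 and Ibsp gave adjusted p-values of 0.120 and 0.0821. Without the filter on dim probes, when more probes are tested, Dmp1 (-0.80, 0.0711) and Ibsp (0.79, 0.0574) did not pass. The deviations of same-numbered arrays had r = 0.03, -0.08 and 0.14, within the range of -0.25 to 0.20 for arrays with different numbers. With 3 arrays per group these values cannot decide whether the replicate number marks a pairing. With a replicate block 469 probes passed, Spp1 among them (-1.09, adjusted p = 0.0438), while Dmp1 (-0.80, 0.0505), Ibsp (0.79, 0.0547), Sp7, Runx2, Nudt9 and Adgre1 did not.

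The dimmer Ibsp probe turned sign after quantile normalization and in the series matrix (-0.0601 and -0.0599) and with the slide as a block or slide 1 alone (-0.00964), and Mepe after normexp (0.17) and with the slide as a block, with or without 1 probe per gene, or slide 1 alone (0.0830). Without 1 array Mepe ran from -0.136 to 0.0656, and the dimmer Ibsp probe from 0.07 to 0.32. The gap between the dimmer Ibsp probe and Mepe was 0.23, and -0.0927 within slide 1. The number of probes past the threshold was 1948, against 3014 after normexp, 298 without the filter, 3294 with an intensity trend, 158 with the slide as a block and 180 with 1 probe per gene in addition. Without 1 array the number was 138 to 343, but 7168 without FeMnSi 1, the fit in which group and slide coincide. The share of these that were higher was 62.8%, against 42.4%, 39.4%, 26.5%, 73.2% and 42.3% with quantile normalization, median scaling, no scaling, normexp and the series matrix. The alternatives were run for the genes named by the rule, and not for every list member. Among them, values near 0 changed sign: Hsd17b11 (-0.0548, -0.0396, -0.12 and -0.0658 with quantile normalization, median scaling, no scaling and the series matrix, -0.0754 with the slide as a block, with or without 1 probe per gene, or slide 1 alone), Pkd2 (-0.0852, -0.0635 and -0.10 with quantile normalization, no scaling and the series matrix), Cd44 (-0.0461 without scaling), Ocstamp (0.0328 after normexp) and Itgb3 (-0.110 to 0.0260 without 1 array). The cause of these changes was not tested.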
